A study of Mus musculus with 10 samples.

Results

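The 6 genes described here encode inhibitors of cyclin-dependent kinases (CDKs) of the INK4 and KIP families. They were chosen by symbol, with no expression value in the rule, and all 6 were found among the 52097 genes of the deposited table. The INK4 genes are Cdkn2a (p16Ink4a and p19Arf), Cdkn2b (p15Ink4b), Cdkn2c (p18Ink4c) and Cdkn2d (p19Ink4d). The KIP genes are Cdkn1b (p27Kip1) and Cdkn1c (p57Kip2). RNA was measured in bone marrow cells of mice, sorted as haematopoietic stem cells by the gate Lin- Sca-1+ c-Kit+ CD48- CD150+, with some 5000 cells a sample. The groups were 5 KO samples, titled Dhx16_CKO, and 5 WT samples, the controls, titled Dhx16_fl. Dhx16 encodes a DEAH-box helicase of the spliceosome. The labels give neither the Cre driver nor age, sex, time after deletion or whether each sample is a separate mouse, so p-values measure the spread between samples, which may be technical.

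INK4 proteins bind CDK4 and CDK6 and keep them from D-type cyclins. KIP proteins bind whole cyclin and kinase complexes, above all cyclin E and cyclin A with CDK2. Both brakes keep retinoblastoma proteins active and E2F target genes silent, which holds a cell before S phase. In mouse stem cells, p57Kip2 and p27Kip1 are known for their part in quiescence, p18Ink4c restrains self-renewal, and the Cdkn2a locus is kept silent by Polycomb proteins such as Bmi1.

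Each library is a column of FPKM values (fragments per kilobase of transcript, scaled to library size), a per-length scale on which genes can be compared. The libraries are called by their column names, CKO7, CKO8, CKO9, CKO12 and CKO13 for KO and WT2 to WT6 for WT. Dhx16 was at 7.10 to 10.88 FPKM in KO and 14.33 to 22.63 FPKM in WT libraries. FPKM summed to 877099 to 966648 in KO and 770789 to 957520 in WT libraries. The read depth per library is unknown, though the authors' size factors could be recovered and ran from 0.734 to 1.26 in KO and 0.983 to 1.36 in WT libraries. Of the 4 genes of the sort gate, Kit, Ly6a and Slamf1 encode markers it selects, and Cd48 one it excludes. The 4 genes summed to 289.7 to 439 FPKM in KO and 286 to 483 FPKM in WT libraries. Cd48 RNA was present, at 6.86 ± 1.09 FPKM in KO and 10.3 ± 3.99 FPKM in WT (mean ± SD, n = 5 each, as throughout). Kit and Ly6a make up most of this sum and were not called. Slamf1, which encodes CD150, was at 10.9 ± 2.20 FPKM in KO and 21.5 ± 4.65 FPKM in WT, with no overlap. It was called lower (log2 -0.92, limma adjusted p = 0.000277), as were 31.6% of the 6913 genes tested.

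Other cell types were also represented in the libraries. The sum of 10 erythroid markers was 805 to 1253 FPKM in KO and 136 to 435 FPKM in WT libraries, and all 10 were called higher, where 21.1% of the 6913 genes tested were called higher and 31.6% lower. The sum of 6 macrophage markers was 10.6 to 27.5 FPKM in KO and 117 to 272 FPKM in WT libraries, and the sum of 8 megakaryocyte markers, all called lower, was 718 to 1412 FPKM in KO and 1528 to 2312 FPKM in WT libraries. The 10 stem cell markers summed to 326 to 531 FPKM in KO and 636 to 869 FPKM in WT libraries. Granulocyte markers (6 genes) summed to 8348 to 40842 FPKM in KO and 9623 to 74170 FPKM in WT libraries, and bone matrix markers (6 genes) to 4549 to 47778 and 3180 to 65870 FPKM, so both overlapped between the groups. T and NK cell markers (6 genes) summed to 73.6 to 132.6 FPKM in KO and 70.1 to 175.4 FPKM in WT libraries. B cell markers (6 genes) summed to 18.9 to 32.4 and 30.2 to 50.1 FPKM, and both sums overlapped between the groups. Nkg7 made up most of the T and NK cell sum and was not called as deposited. Cd79b made up most of the B cell sum and was called lower as deposited. None of the markers on these lists was at 0 in every library. The T cell gene Cd3e was low, at a mean of 0.154 FPKM in KO and 0.314 FPKM in WT. As deposited, the erythroid, macrophage, megakaryocyte and stem cell sums separated the groups, as Cdkn1b, Cdkn1c and Cdkn2d did. Whether these sums did so under the other library scalings used below was not tested. Of 7 stem cell markers tested, all were called lower as deposited and 2 in every scaling. Of the 8 megakaryocyte markers, 7 were called lower in every scaling. The exception was Pf4, which makes up most of that sum. The part of these cell types in the inhibitor changes was not tested. In bulk samples such as these, fewer cells of a type and less RNA per cell cannot be told apart.

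The 3 inhibitor genes that changed all fell in KO: Cdkn2d, Cdkn1b and Cdkn1c. They are on mm10 chromosome 9 (21288410 to 21291407), chromosome 6 (134920401 to 134925513) and chromosome 7 (143458339 to 143461050). RefSeq (GRCm38.p6) gives promoter windows for 5 of the 6 members and none was found for Cdkn1c. The bases ahead of the annotated start are printed for Cdkn1b and Cdkn2d because both genes fell. For Cdkn1b they are chr6:134920151-134920400, plus strand. For Cdkn2d they are the 52 bases at chr9:21291408-21291459, minus strand, that precede every annotated transcript. Both run 5′ to 3′, and capitals mark the CCAAT box (CCAAT, or ATTGG on the other strand) and the GC box (GGGCGG, or CCGCCC).
Cdkn1b: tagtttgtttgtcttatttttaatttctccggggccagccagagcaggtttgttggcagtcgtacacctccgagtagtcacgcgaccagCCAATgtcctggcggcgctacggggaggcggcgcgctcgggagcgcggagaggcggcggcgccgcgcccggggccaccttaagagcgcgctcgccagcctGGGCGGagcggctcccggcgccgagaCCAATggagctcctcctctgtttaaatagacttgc
Cdkn2d: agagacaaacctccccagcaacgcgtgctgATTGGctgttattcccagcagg

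The Cdkn1b window held 2 CCAAT boxes and 1 GC box. The full 250-base window of Cdkn2d held 1 CCAAT box and 3 GC boxes. These motifs are common: of 32851 promoter windows of that length, 33.8% held a CCAAT box and 32.7% a GC box on either strand. A FOXO core (GTAAACA, 3.17% of windows) and an E2F site (TTTCGCGC, 0.256% of windows) were in no window of the 5 members. A CRE (TGACGTCA, 1.55% of windows) was in that of Cdkn2b alone.

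Cdkn2d was the most abundant of the 6 in every library. It stood at 37.09, 46.72, 50.47, 57.12 and 42.94 FPKM in the KO libraries, against 83.88, 90.09, 88.38, 90.13 and 72.55 FPKM in the WT libraries. The highest KO library was below the lowest WT library. Its mean was 46.9 ± 7.57 FPKM in KO and 85.0 ± 7.41 FPKM in WT, a log2 change of -0.86 with a standard error of 0.12 (limma on log2 of FPKM + 1, adjusted p = 6.33e-05). It was the only member to reach the filter of 10 FPKM in at least 5 libraries, where 52.7% of 6913 genes were called, 31.6% lower and 21.1% higher. Its share of the summed FPKM of the 6 genes was 79.8 ± 5.88% in KO and 78.1 ± 2.14% in WT.

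Cdkn1b and Cdkn1c, the KIP members, were less abundant and lay below that filter. Cdkn1b was at 3.74, 3.37, 4.19, 4.86 and 3.39 FPKM in KO libraries, against 7.69, 8.64, 10.39, 9.59 and 6.01 FPKM in WT libraries, with no overlap. The means were 3.91 ± 0.627 FPKM in KO and 8.46 ± 1.71 FPKM in WT, and the log2 difference was -0.94 (exact permutation test, two-sided, p = 0.00794, the smallest that 5 against 5 allows). Cdkn1c was at 5.15, 4.54, 1.36, 5.08 and 3.97 FPKM in KO libraries, against 11.06, 8.22, 12.26, 10.79 and 13.49 FPKM in WT libraries. Its groups also did not overlap, and CKO9 was the lowest of all. The means were 4.02 ± 1.56 FPKM in KO and 11.2 ± 1.96 FPKM in WT, a log2 difference of -1.34 (exact permutation p = 0.00794). Without CKO9 the difference was -1.09, the smallest over left-out libraries. An antisense gene, Gm44732, overlaps exons of Cdkn1c and was at 0.27 FPKM or less in every library, and the strand setting of the counting is not given in the sources used here.

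With a filter of 1 FPKM, 4 members entered the fit over 13448 genes, and 3 were called lower and 0 higher. Of all those genes 49.7% were called, 36.4% lower and 13.4% higher, so a call was common among all genes. The limma changes were -0.94 with a standard error of 0.15 for Cdkn1b (adjusted p = 0.000422), -1.34 with 0.24 for Cdkn1c (adjusted p = 0.000858) and -0.86 with 0.12 for Cdkn2d (adjusted p = 0.00019). The median change of all genes was -0.26. Changes lower than that of Cdkn1c were seen in 2.45% of genes, lower than that of Cdkn1b in 8.59% and lower than that of Cdkn2d in 11%. As deposited, the groups of all 3 did not overlap, as held for 25.1% of the 13448 genes in the lower direction and 7.76% in the higher. An exact permutation p under 0.05 with a lower KO mean was found for 39.8% of those genes.

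Cdkn2c did not pass. It was at 6.46, 2.85, 1.91, 4.07 and 3.10 FPKM in KO libraries, against 3.57, 4.24, 4.04, 2.81 and 4.05 FPKM in WT libraries. The KO libraries spread on both sides of the WT range, with CKO7 highest. The means were 3.68 ± 1.73 FPKM in KO and 3.74 ± 0.577 FPKM in WT, a log2 difference of -0.08 (exact permutation p = 0.738). The sign of this difference turned with the library scaling and without CKO9, and no setting called it.

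The neighbours Cdkn2a and Cdkn2b, 11645 bases apart on chromosome 4, were at or near 0. Cdkn2b was at 0, 0.05, 0, 0 and 0.56 FPKM in KO libraries, against 0.47, 0.43, 0.28, 0.33 and 0.25 FPKM in WT libraries. Of the KO libraries 4 were below all WT libraries and CKO13 was above them. The log2 difference was -0.29 (exact permutation p = 0.0556), and without CKO13 it was -0.41 (exact permutation p = 0.00794). Cdkn2a was listed at 0 in all KO libraries and in all WT libraries but WT3, at 0.09 FPKM. Its mean normalised count in the authors' deposited table, 0.0737, times 10 libraries and the size factor of WT3, gives 1 read. The annotation gives Cdkn2a 2 transcripts, and a value per gene with 1 read does not separate the p16Ink4a form from the p19Arf form.

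**Figure D1:**
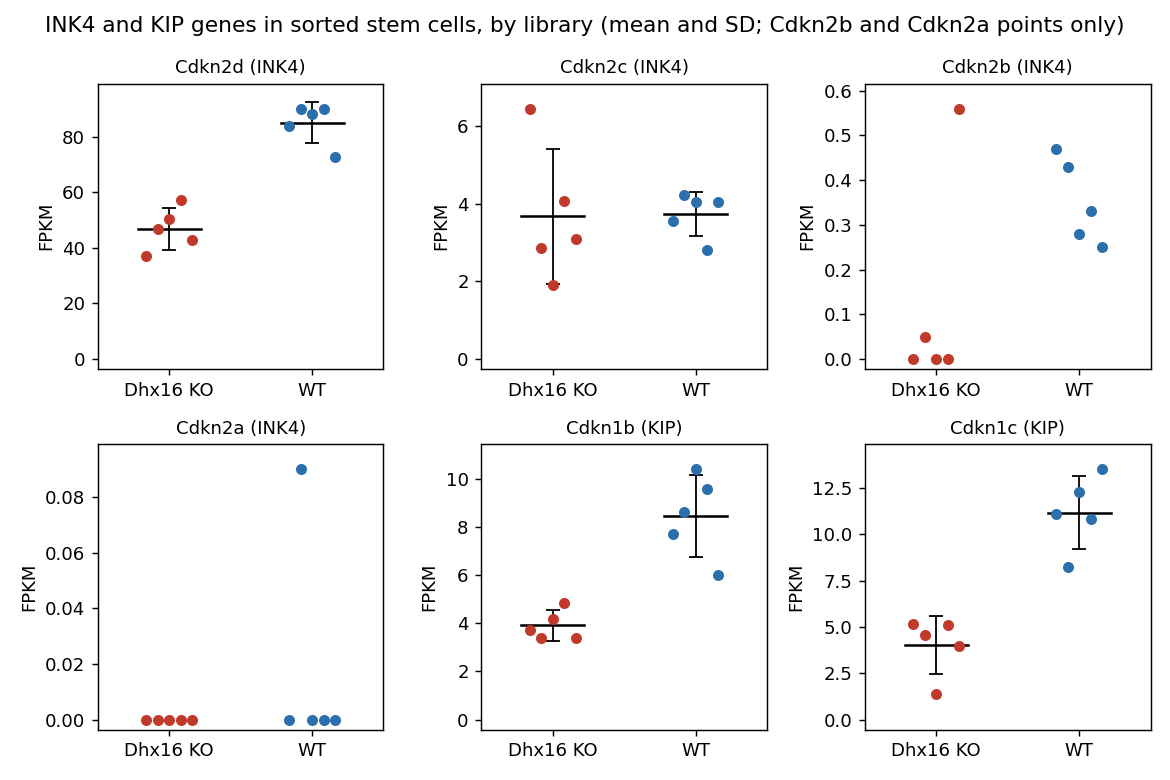
FPKM of each gene (vertical axis, separate scales) in the 5 Dhx16 KO and 5 WT libraries, 1 point per library; lines and bars are mean and SD, left out for Cdkn2b and Cdkn2a. Cdkn2d, Cdkn1b and Cdkn1c have no overlap between groups, Cdkn2c does, and Cdkn2a has 1 library above 0.

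Mean levels ranked alike in both groups, but the order of Cdkn1c, Cdkn1b and Cdkn2c differed between KO libraries. In KO libraries Cdkn2d led, and the ranges of Cdkn1c, Cdkn1b and Cdkn2c, which came next, overlapped one another. In WT libraries the ranges of Cdkn1c (8.22 to 13.49 FPKM) and Cdkn1b (6.01 to 10.39 FPKM) overlapped, and both lay above Cdkn2c (2.81 to 4.24 FPKM). Summed INK4 FPKM was 43.6 to 61.2 in KO and 76.9 to 94.9 in WT libraries, and summed KIP FPKM was 5.55 to 9.94 in KO and 16.9 to 22.7 in WT libraries. Cdkn1a (p21Cip1), the KIP-family gene outside this set and a p53 target, was at 98.0 ± 37.9 FPKM in KO and 95.3 ± 22.3 FPKM in WT and was not called (limma adjusted p = 0.973).

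The size of each fall depended on how libraries were scaled, so each was also read against the median gene. Under 5 scalings with the filter of 1 FPKM, the median change of all genes ran from -0.38 to 0.16. The log2 change of Cdkn1c ran from -1.46 to -0.92 and that of Cdkn1b from -1.06 to -0.52, called in all 5. With the filter of 1 FPKM, 14.0% of genes were called lower under median-of-ratios factors and 13.2% under the authors' scaling. The log2 change of Cdkn2d ran from -1.0 to -0.37 and was not called with upper-quartile factors (limma adjusted p = 0.0509). The lack of overlap between groups is a statement about the values as deposited. For Cdkn1b the groups overlapped with median-of-ratios factors (exact permutation p = 0.0238) and with the authors' scaling (exact permutation p = 0.0159). For Cdkn1c the exact permutation p stayed at 0.00794 with both. Relative to the median gene of the same scaling, the changes were -1.09 to -1.07 for Cdkn1c, -0.68 to -0.67 for Cdkn1b, -0.62 to -0.53 for Cdkn2d and 0.15 to 0.18 for Cdkn2c. In the authors' deposited table the log2 fold changes were -1.47 (standard error 0.30) for Cdkn1c, -0.64 (0.20) for Cdkn1b and -0.43 (0.16) for Cdkn2d. The adjusted p-values in the authors' deposited table were 1.07e-05, 0.00871 and 0.0303 in the same order, where 28.6% of 23405 genes were called and 11.5% were called lower. For Cdkn2c and Cdkn2b the authors' deposited table gave 0.45 and -1.31, with adjusted p = 0.287 and 0.34. Mean normalised counts in the authors' deposited table were 1071 for Cdkn2d, 280.2 for Cdkn1b, 109.8 for Cdkn1c, 80.1 for Cdkn2c and 3.62 for Cdkn2b, so the precision behind the low members is smaller.

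**Figure D2:**
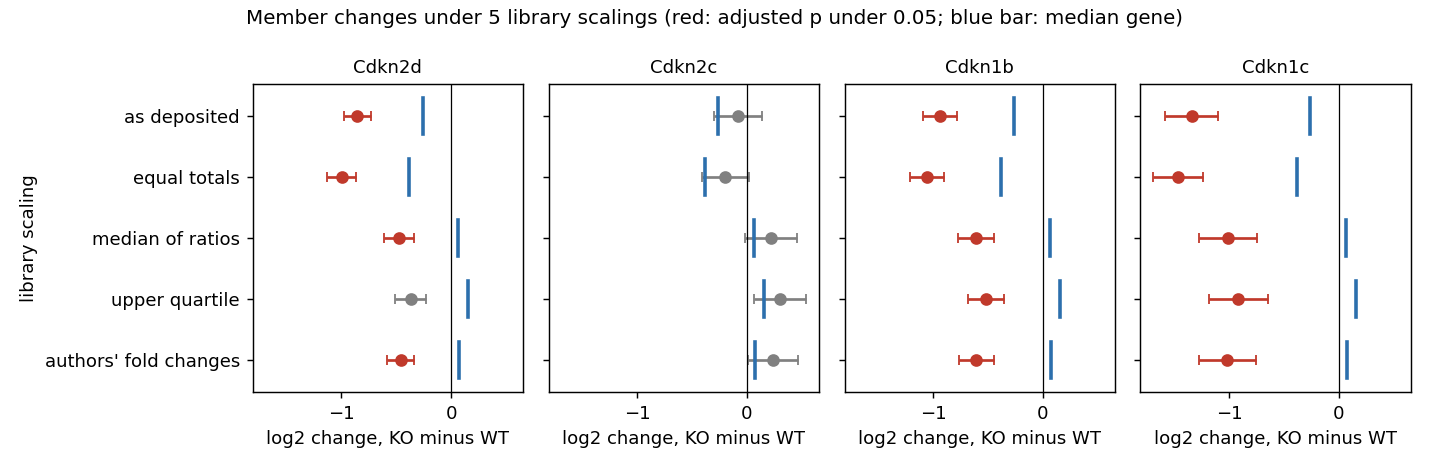
Log2 change (KO minus WT, horizontal axis) with its standard error under 5 library scalings, filter of 1 FPKM; red points have a limma adjusted p under 0.05, grey points do not, and blue bars mark the median of all genes. Cdkn1b and Cdkn1c are red throughout, Cdkn2d is grey with upper-quartile factors, and Cdkn2c is grey throughout.

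Ratios of genes within a library do not depend on its scaling. Among the 6 pairs of Cdkn1b, Cdkn1c, Cdkn2c and Cdkn2d, the ratio of Cdkn1c to Cdkn2c differed. It was 0.712 to 1.59 in KO and 1.94 to 3.84 in WT libraries, a log2 difference of -1.47 (exact permutation p = 0.00794, adjusted p = 0.0476 over 6 pairs). Over left-out libraries this difference was -1.62 to -1.32, and the call was lost without CKO7 (exact permutation adjusted p = 0.0794). For Cdkn1b over Cdkn2c the difference was -0.97 (exact permutation p = 0.0317, adjusted p = 0.0952). The other 4 pairs had exact permutation adjusted p-values of 0.127 to 0.389, among them Cdkn1c over Cdkn2d with a difference of -0.73, so the 3 falls were not shown to differ in size. Without CKO9, the ratios of Cdkn1b and Cdkn1c to Cdkn2c and of Cdkn2c to Cdkn2d all passed (exact permutation adjusted p = 0.0317 for each).

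Of 9 kinase and cyclin partners of the inhibitors, 8 were tested, and as deposited 4 rose and 2 fell, where 21.1% of all genes tested were called higher and 31.6% lower. With median-of-ratios factors 5 rose and 0 fell, where 44.8% of all genes were called higher and 11.2% lower. Cdk4 rose to 554 ± 55.4 FPKM in KO, against 286 ± 31.5 FPKM in WT (log2 0.95, limma adjusted p = 3.02e-05). Cdk6 was lower, at 43.4 ± 8.42 FPKM in KO and 70.0 ± 7.91 FPKM in WT (log2 -0.69, limma adjusted p = 0.000665), as was the D-type cyclin gene Ccnd2, at 184 ± 20.8 and 259 ± 37.7 FPKM (KO and WT, log2 -0.49), but both calls were lost with the median-of-ratios, the upper-quartile and the authors' own scaling. Among the partners of CDK2, the cyclin genes Ccne1, Ccna2 and Ccne2 rose by log2 2.58, 1.53 and 0.88. Cdk2 was at 61.4 ± 6.18 FPKM in KO and 56.6 ± 6.50 FPKM in WT and Ccnd3 at 298.5 ± 71.5 and 292 ± 18.0 FPKM, neither called as deposited. Cdk2 passed as higher with the authors' own, the upper-quartile and the median-of-ratios scaling, and Ccnd3 with the authors' own and the upper-quartile scaling. Ccnd1, below the filter, was at 7.55 ± 2.82 FPKM in KO and 5.64 ± 1.12 FPKM in WT.

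The RNA of the inhibitors was also set against that of the kinases they bind. Cdkn2d over Cdk4 was 0.0612 to 0.111 in KO and 0.265 to 0.354 in WT libraries, a log2 difference of -1.82 (exact permutation p = 0.00794, adjusted p = 0.0106 over 4 ratios). Cdk4 was at 476 to 607 FPKM in KO and 255 to 333 FPKM in WT libraries. Both genes thus separated the groups, in opposite directions, so their ratio had to as well and its test adds nothing to those results. Cdkn2d over Cdk6 was 0.734 to 1.31 in KO and 1.08 to 1.35 in WT libraries, and the groups overlapped (log2 difference -0.16, exact permutation p = 0.405). With both INK4 and both kinase genes summed, Cdkn2c and Cdkn2d over Cdk4 and Cdk6 was 0.0663 to 0.107 in KO and 0.223 to 0.289 in WT libraries (log2 difference -1.57, exact permutation adjusted p = 0.0106). Cdkn2d and Cdk4 make up most of these sums, so this ratio largely repeats the first. Cdkn1b and Cdkn1c over Cdk2 was 0.0795 to 0.165 in KO and 0.284 to 0.465 in WT libraries (log2 difference -1.45, exact permutation adjusted p = 0.0106). The KIP sum alone already separated the groups, at 5.55 to 9.94 FPKM in KO and 16.9 to 22.7 FPKM in WT libraries. Cdk2 varied little, at 52.5 to 69.8 and 48.7 to 66.1 FPKM. This ratio thus repeats the KIP falls and its test adds nothing to them. These are ratios of RNA, and protein was not measured.

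**Figure D3:**
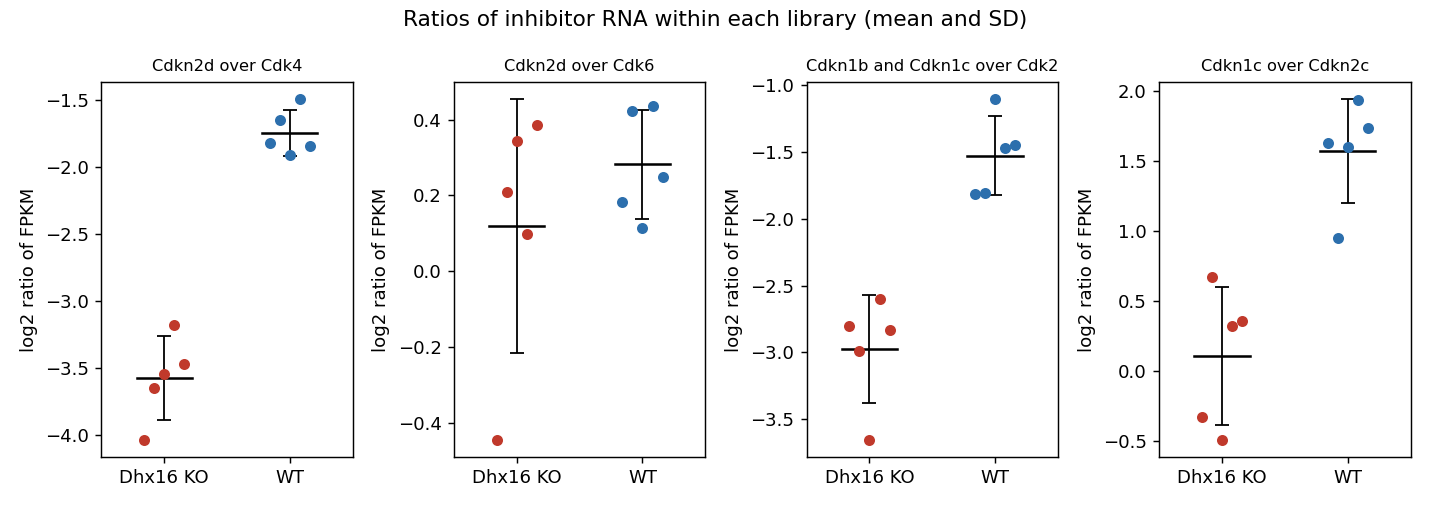
Log2 ratio of FPKM within each library (vertical axis, separate scales) in Dhx16 KO and WT libraries, with mean and SD. The groups separate for Cdkn2d over Cdk4, for Cdkn1b and Cdkn1c over Cdk2 and for Cdkn1c over Cdkn2c, and overlap for Cdkn2d over Cdk6.

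Of 10 tested genes of the ubiquitin ligases and helpers that act on p27Kip1, 7 rose and 0 fell as deposited, where 21.1% of all genes tested were called higher and 31.6% lower. Their median change was 0.51, against -0.12 for all 6913 genes. With equal library totals 5 were called higher, where 15.1% of all genes were, and with upper-quartile factors all 10 were, where 52.3% of all genes were. The 5 were called higher in all 5 scalings. Cks1b, the cofactor through which SKP2 binds p27Kip1, rose to 225 ± 16.3 FPKM in KO, against 85.3 ± 25.5 FPKM in WT (log2 1.43, limma adjusted p = 1.31e-05). Ubac1, a subunit of the KPC ligase, and Cdc34, a ubiquitin-conjugating enzyme, rose by log2 1.39 and 1.03. Skp2 itself was below the filter, at 9.22 ± 2.75 FPKM in KO and 5.90 ± 0.334 FPKM in WT (exact permutation p = 0.0238). Many of these genes also serve other ligases.

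Downstream of the kinases, 5 of 13 retinoblastoma and E2F genes were tested. As deposited 3 rose and 0 fell, with a median of 0.56, where 21.1% of all genes tested were called higher and 31.6% lower. With median-of-ratios factors 3 rose, where 44.8% of all genes were called higher. With upper-quartile factors 4 rose, where 52.3% were. Below the filter, E2f5 was at 2.42 ± 0.516 FPKM in KO and 4.23 ± 0.557 FPKM in WT (exact permutation p = 0.00794). E2f8, also below it, was at 10.5 ± 1.97 FPKM in KO and 7.27 ± 1.52 FPKM in WT (exact permutation p = 0.0397). E2f4 rose to 63.8 ± 10.1 FPKM in KO, against 29.7 ± 4.51 FPKM in WT (log2 1.07, limma adjusted p = 1.97e-05). Rbl1, which encodes the pocket protein p107, and Tfdp1, an E2F partner, rose by log2 0.57 and 0.56, and the call of Rbl1 was lost with equal library totals.

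Among regulators of transcription of these genes, few passed the filter. Of 6 regulators of the KIP genes and Cdkn2c, 2 were tested and 0 called. Hes1, whose protein represses Cdkn1b, was at 38.4 ± 23.3 FPKM in KO and 82.5 ± 29.0 FPKM in WT (log2 -1.33, limma adjusted p = 0.0853). Foxo3, which activates Cdkn1b, was below the filter at 5.23 ± 0.790 FPKM in KO and 9.39 ± 1.16 FPKM in WT (exact permutation p = 0.00794). Kmt2a, a methyltransferase that with menin activates Cdkn1b and Cdkn2c, was at 4.40 ± 0.865 FPKM in KO and 9.91 ± 1.09 FPKM in WT (exact permutation p = 0.00794). Foxo1, of the same list, was at 0.62 ± 0.0644 FPKM in KO and 1.22 ± 0.192 FPKM in WT (exact permutation p = 0.00794). An exact permutation p under 0.05 with a lower KO mean was found for 39.8% of 13448 genes. In the authors' deposited table Foxo3, Kmt2a and Foxo1 had log2 fold changes of -0.35, -0.58 and -0.57 (adjusted p = 0.0412, 0.000519 and 0.00317). Men1, which encodes menin, was at 29.9 ± 5.02 FPKM in KO and 33.2 ± 2.89 FPKM in WT (limma adjusted p = 0.324).

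For the Cdkn2a and Cdkn2b locus, 11 of 24 regulators were tested, and as deposited 1 rose and 6 fell, with a median of -0.54, where 21.1% of all genes tested were called higher and 31.6% lower. The balance turned with the scaling: with median-of-ratios factors 3 were called higher (Eed, Ezh2 and Kdm2b) and 2 lower (Cbx7 and Ezh1), where 44.8% of all genes were called higher and 11.2% lower. Upper-quartile factors also called Smad2 higher. Cbx7, a Polycomb reader of the locus, fell to 6.76 ± 1.70 FPKM in KO, against 17.4 ± 2.87 FPKM in WT (log2 -1.26, limma adjusted p = 4.03e-05). Ezh1, a histone methyltransferase, fell by 0.94 on the log2 scale, and Smad3, a mediator of TGF-beta signals to Cdkn2b, by 0.58. Eed, a Polycomb repressive subunit, rose by log2 0.62. Cbx7, Ezh1 and Eed kept their calls in all 5 scalings, and Smad3, Rnf2, Ets2 and Dmtf1 lost theirs in the median-of-ratios, the upper-quartile and the authors' own scaling. Bmi1 was below the filter at 4.85 ± 1.13 FPKM in KO and 5.11 ± 1.32 FPKM in WT (exact permutation p = 0.746).

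Of 4 genes of the p19Arf axis, 2 rose and 0 fell as deposited, where 21.1% of all genes tested were called higher and 31.6% lower. In either direction 52.7% of all genes tested were called. With median-of-ratios factors 3 were called higher, where 44.8% of all genes were. With equal library totals 2 were called higher and 1 lower, where 15.1% and 38.8% of all genes were. Trp53 rose to 396 ± 39.2 FPKM in KO, against 200.5 ± 22.0 FPKM in WT (log2 0.98, limma adjusted p = 2.08e-05). Npm1, whose protein binds p19Arf, rose by log2 1.24. In the imprinted domain around Cdkn1c, 5 of 10 genes were tested, and as deposited 2 rose and 3 fell, where 21.1% of all genes tested were called higher and 31.6% lower. Tspan32, Phlda2 and Tssc4 fell by 0.78, 0.65 and 0.42 on the log2 scale, while Nap1l4 and Cd81 rose by log2 0.34 and 0.32, and 0 of these 5 calls held in all 5 scalings. Kcnq1ot1, the antisense RNA that silences Cdkn1c on the paternal chromosome, was at 1.43 ± 0.205 FPKM in KO and 1.97 ± 0.221 FPKM in WT. It was not called with the filter of 1 FPKM (limma adjusted p = 0.074). The authors' deposited table gave it a log2 fold change of -0.06 (adjusted p = 0.738).

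**Figure D4:**
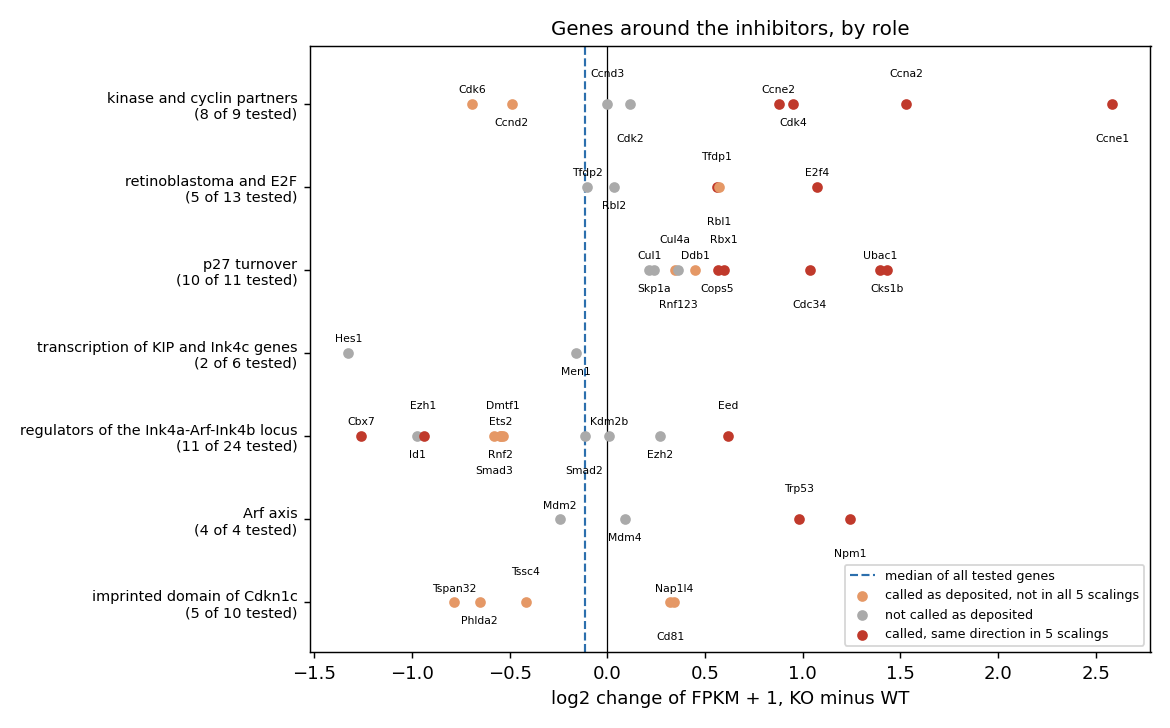
Log2 change (KO minus WT, horizontal axis) of the tested genes in 7 lists around the inhibitors, 1 point per gene; red points were called in the same direction in all 5 scalings, orange points as deposited but not in all 5, and grey points not as deposited. Genes of p27Kip1 turnover lie to the right of the median of all genes (dashed line), at 0.21 to 1.43.

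The profile of Cdkn2d over the 10 libraries was most like those of Mef2c, Unc93b1 and Pqlc3. Likeness is the root mean square difference of log2 (FPKM + 1), each gene centred on its own mean, and it was 0.087, 0.097 and 0.11 for these genes, against a median of 0.48 over 6912 genes. Mef2c, a MADS-box transcription factor gene, was at 81.4 ± 11.5 FPKM in KO and 145 ± 11.8 FPKM in WT, a log2 change of -0.83. Unc93b1, whose protein carries nucleic-acid-sensing Toll-like receptors to endosomes, had a log2 change of -0.87 and Pqlc3 one of -0.77.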

How the data were processed

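The deposited library columns are FPKM values made by the authors. The unit was inferred from the values, since the header names none. The submitters' processing notes list Bowtie 0.12.9, Cufflinks 2.1.1, HTSeq and mm10 without saying which tool made which column. The deposited mean normalised count is a signal, the log2 fold change (KO over WT) and its error are on the log2 scale, the Wald statistic is a score, and the p-value and adjusted p-value are the authors', under column names that DESeq2 uses, per the file headers. Column numbers differ from those in the sample titles, so columns were assigned to groups only.

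Values were tested as log2 (FPKM + 1) with limma 3.58.1 (trend and robust options, R 4.3.3) and Benjamini-Hochberg adjustment, in genes at 10 FPKM or more in at least 5 libraries, with a threshold of 0.05. Members below the filter had exact permutation tests over samples. The procedure was tested on simulated data. Size factors were read from genes above 0 in 1 library, whose mean counts were whole multiples of 1 value within 0.01 for 99.4 to 100% of them. Gene positions are those of GENCODE M21.

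The members and lists were chosen with earlier results of these data known. Named genes are all members and kinase and cyclin partners, the called genes with the largest changes of each list (up to 3 each way) and direct regulators. Some listed genes below the filter of 10 FPKM were also named, after their values were seen. Alternatives were pseudocounts, filters, scalings, weights, covariates and left-out libraries. The combinations with the filter of 1 FPKM, the filter of 8 FPKM and the scaling to the authors' fold changes were chosen after seeing the data.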

Additional observations from a re-analysis of the deposited data

Results flagged for a closer look

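Of 94 groups of 5 libraries looked at, 4 had a library far from the others by Dixon's test. Chance flags about 5% of groups. Cdkn2b was at 0.56 FPKM in CKO13, where the other KO libraries were at 0 to 0.05 FPKM. Cdkn2a was at 0.09 FPKM in WT3, which was 1 read, and listed at 0 in all others. Tssc4 was at 93.43 FPKM in WT2, the highest WT library. Slamf1, the CD150 sort marker, was at 14.71 FPKM in CKO9, the highest KO library.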

How the results depend on the processing

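Cdkn1b, Cdkn1c and Cdkn2d kept their direction and call under every alternative run, except that Cdkn2d had a change of -0.37 (limma adjusted p = 0.0509) with the filter of 1 FPKM and upper-quartile factors. Over left-out libraries the log2 change ran from -1.04 to -0.86 for Cdkn1b, -1.44 to -1.09 for Cdkn1c and -0.93 to -0.78 for Cdkn2d, with the same ends with the filter of 1 FPKM. That of Cdkn2c ran from -0.27 to 0.07, that of Cdkn2b from -0.41 to -0.25 and that of Cdkn2a from -0.03 to 0. Cdkn2b passed without CKO13 and with pseudocounts of 0.1 and 0.5, where its difference was -1.49 and -0.52 (exact permutation p = 0.0476 for both, 0.0556 with 1). With covariates for the bone matrix and granulocyte markers, and the filter of 1 FPKM, the changes were -0.91 for Cdkn1b, -1.35 for Cdkn1c and -0.75 for Cdkn2d. The number of genes changed was 3642 of 6913, and 6687 of 13448 with a filter of 1 FPKM and 5910 of 42256 without one. Over left-out libraries it was 2974 to 3529. Of the called genes 40.1% were higher as deposited, 28.0% with equal totals, 80.0% with median-of-ratios, 87.1% with upper-quartile and 79.7% with the authors' scaling. Weights and covariates could not be applied to members below the filter of 10 FPKM except together with that of 1 FPKM. No paired analysis was possible because the library columns do not carry the replicate numbers of the labels. Depth per library is unknown, which leaves the low members without counting intervals.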
